A study of Mus musculus with 6 samples.

Results

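The protocadherin genes of the mouse are described here in endothelial cell preparations from the retinas of pups at postnatal day 7. Members were all rows whose gene symbol begins with Pcdh. There were 71 members among 24421 rows, and they fell into 12 non-clustered genes, 15 genes of the alpha cluster, 22 of the beta cluster and 22 of the gamma cluster. RNA sequencing was carried out on 6 libraries from C57BL/6 pups. The 3 control libraries came from Anxa3 fl/fl pups, whose Anxa3 alleles carry loxP sites, and the 3 mutant libraries from Anxa3 fl/fl;Tie2-Cre pups, which also carry a Cre recombinase driven by the Tie2 promoter in endothelial and blood-lineage cells. The question put to the libraries was which transcripts differ once annexin A3, a phospholipid-binding protein, is lost from retinal vessels. The control pups carry no Cre, so Cre itself and Anxa3 loss cannot be told apart. The number of pups behind a library is not given in the labels, and p-values therefore measure the spread between these libraries, which may be partly technical.

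Protocadherins are transmembrane adhesion proteins of the cadherin superfamily. In the alpha and gamma clusters, each gene has its own large first exon and promoter, and its transcript is spliced to a set of exons shared by the whole cluster, whereas beta genes are made of a single exon. Single neurons switch on a few clustered genes each, and matching proteins on neighbouring membranes recognise one another, which in the retina serves the self-avoidance of amacrine cell dendrites and the survival of interneurons. Non-clustered protocadherins stand alone in the genome, and Pcdh12, also called VE-cadherin-2, is the member known from endothelial cells.

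Expression was given by the authors as FPKM, a count of fragments divided by transcript length and by sequencing depth, and depth factors recovered from the smallest steps in the values ran from 21062142 reads in mutant replicate 1 to 31137828 reads in mutant replicate 2. The libraries were not purely endothelial. All 20 pan-endothelial marker genes were detected, with a summed level of 770 to 1713 FPKM per library, while 14 photoreceptor genes summed to 3850 to 6009 FPKM. Control replicate 3 stood apart: its endothelial sum was the highest and its photoreceptor sum the lowest of the 6. Genes of pericytes and smooth muscle, the cells that wrap vessels, moved with it: 12 of them summed to 359 FPKM in control replicate 3 and to 190 to 272 FPKM in the other libraries, with 0 of the 12 at 0 throughout. Values are given in replicate order throughout. Control libraries had 18.7, 17.7 and 43.4 FPKM of Anxa3 and mutant libraries 9.78, 12.5 and 15.1 FPKM, lower in each mutant library than in any control library. In such bulk samples, fewer cells of a type and less RNA per cell cannot be told apart. The labels also letter the libraries, A, C and D for the controls and B, E and F for the mutants in replicate order, without saying what the letters mean.

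Windows upstream of RefSeq start sites on GRCm38.p6 were read for 9 of the non-clustered members. Pcdh1, Pcdh12 and Pcdh11x were not among them, so the motif counts below do not cover these genes. The sequences upstream of a pair of the 9 are shown because the members of this pair differed in the comparison with endothelial markers described further on. Pcdh19, an X-linked gene on the minus strand known for its link to epilepsy, was the one that met the rule for following the markers. Pcdh15, on the plus strand of chromosome 10, was the most highly expressed member and had a slope near 0 on them over all 6 libraries. Capitals mark matches, on either strand, to the GC box GGGCGG, the CCAAT box and the TATA box TATAAA. The Pcdh19 window is chrX:133689045-133689243, 199 bases, and the Pcdh15 window is chr10:73821617-73821866, 250 bases ahead of a start that lies inside the outer bounds of the gene.
Pcdh19: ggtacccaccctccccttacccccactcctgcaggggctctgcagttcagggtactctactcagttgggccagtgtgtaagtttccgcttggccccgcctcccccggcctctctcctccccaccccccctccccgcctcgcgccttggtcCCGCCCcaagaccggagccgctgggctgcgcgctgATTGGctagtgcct
Pcdh15: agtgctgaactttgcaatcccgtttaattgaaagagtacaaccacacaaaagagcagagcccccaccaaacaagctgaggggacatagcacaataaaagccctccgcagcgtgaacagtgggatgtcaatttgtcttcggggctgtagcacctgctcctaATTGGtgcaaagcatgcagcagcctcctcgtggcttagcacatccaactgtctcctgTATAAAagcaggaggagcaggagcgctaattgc
The Pcdh19 window held 1 GC box, 1 CCAAT box and 11 CG dinucleotides at 68.8% G or C. The Pcdh15 window held 1 CCAAT box, 1 TATA box and 6 CG dinucleotides at 50.4% G or C. Over the 10 windows of the 9 members, a CCAAT box was found in 9, a GC box in 4 and a TATA box in 2, and the ETS cores CGGAAG and AGGAAG in 0 and 1. Pcdh9 had a pair of overlapping windows, which hold the same CCAAT box and were both counted. The counts took the full 250 bases for Pcdh19, whose printed window leaves out 51 bases inside the bounds of the gene. Over 32851 windows of 250 bases from the whole genome, the shares were 33.8% for the CCAAT box, 32.7% for the GC box, 12.4% for the TATA box, and 13.6% and 29.5% for the ETS cores. These are matches of letters and were not tested as binding sites.

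Of the 12 non-clustered protocadherins, 11 reached at least 1 FPKM in at least 3 libraries, the level needed to enter the test, and Pcdh20 did not, at 0.0736 to 0.220 FPKM. Pcdh15 forms the tip links of inner-ear hair cells with cadherin 23, is mutated in Usher syndrome and is also made by photoreceptors. Control libraries had 43.8, 37.1 and 38.1 FPKM of Pcdh15 and mutant libraries 37.3, 46.5 and 39.8 FPKM. The groups overlapped, and the whole range spanned 1.25-fold.

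Pcdh1, a protocadherin of airway epithelium and of endothelium, lies on chromosome 18 from 38185914 to 38212048. Its level was 24.4, 24.9 and 47.4 FPKM in the controls and 24.9, 27.8 and 35.2 FPKM in the mutants. Pcdh12 lies close by, from 38267092 to 38284401. It measured 13.4, 11.7 and 27.5 FPKM in the controls and 11.3, 13.1 and 14.9 FPKM in the mutants. Both genes were highest in control replicate 3 and next highest in mutant replicate 3, so that the groups overlapped. Pcdh12 had the widest spread of the tested members, with a coefficient of variation of 39.9% over the 6 libraries against a median of 12.1% over all 13622 genes tested.

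The remaining non-clustered members are best known from the nervous system. Pcdh9, a neuronal protocadherin of the delta-1 group, whose proteins share a phosphatase-binding motif in the cytoplasmic tail, was at 12.6, 13.1 and 12.8 FPKM in the controls and at 12.1, 13.3 and 15.6 FPKM in the mutants. Pcdh7, of the same group and with a role in retinal ganglion cell axons, was at 7.96, 9.10 and 9.74 FPKM in the controls and at 8.14, 9.42 and 11.7 FPKM in the mutants. Both were highest in mutant replicate 3, with overlapping groups.
Pcdh11x, the X-linked member of that group, was the lowest of the tested non-clustered genes. Its values were 1.99, 2.13 and 1.79 FPKM in the controls and 2.37, 2.39 and 2.12 FPKM in the mutants. Mutant replicate 3 fell just under control replicate 2, and the groups overlapped through that pair alone.

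The members of the delta-2 group, several of which recruit the WAVE actin regulator, had middling levels. Pcdh18 was at 7.82, 7.93 and 12.5 FPKM in the controls and at 11.2, 9.32 and 9.82 FPKM in the mutants. Pcdh8, whose product is also called arcadlin, was at 6.09, 9.02 and 8.19 FPKM in the controls and at 6.76, 7.61 and 8.94 FPKM in the mutants. Pcdh18 was highest and Pcdh8 second highest among the controls in control replicate 3, and neither separated the groups.
Pcdh10, also called OL-protocadherin, was at 4.64, 4.99 and 4.37 FPKM in the controls and at 4.37, 4.20 and 5.58 FPKM in the mutants. Pcdh19 was at 4.17, 3.95 and 5.64 FPKM in the controls and at 4.50, 4.44 and 5.004 FPKM in the mutants. Pcdh17, which organises presynaptic sites, was at 4.13, 4.47 and 5.56 FPKM in the controls and at 3.97, 4.45 and 4.86 FPKM in the mutants. Pcdh19 and Pcdh17 were both highest in control replicate 3 and next highest in mutant replicate 3, while Pcdh10 was highest in mutant replicate 3 and in the lower part of its range in control replicate 3.

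**Figure D1:**
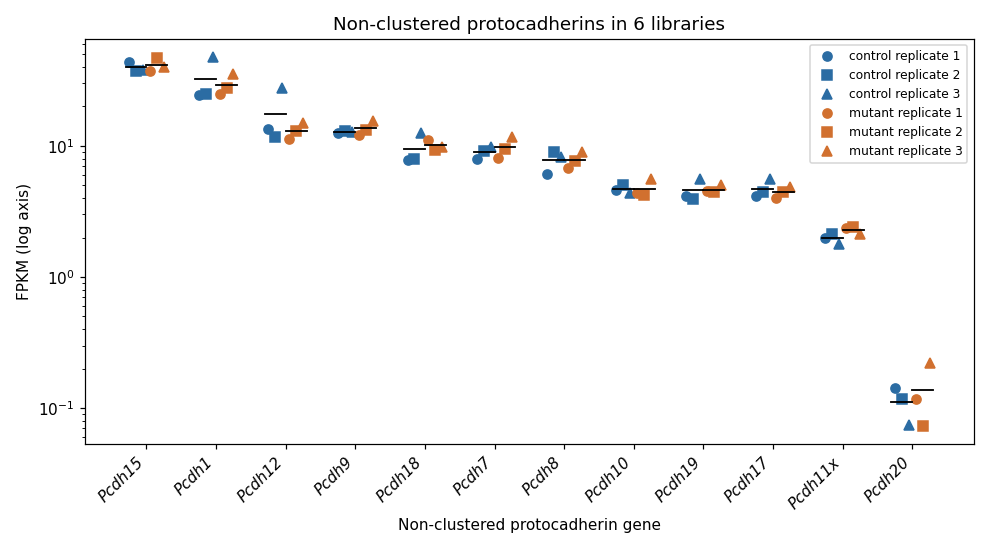
FPKM of the 12 non-clustered protocadherins on a log axis, 1 point per library, control in blue and mutant in orange, with a short bar at each group mean (n = 3 each). Pcdh15 and Pcdh1 are highest and Pcdh20 lowest, and the triangle of control replicate 3 stands above the other control points for Pcdh1 and Pcdh12.

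To ask which members follow endothelial content, an endothelial index was taken as the mean log2(FPKM + 1) of 3 genes of endothelial junctions and surface, Pecam1, Cdh5 and Cldn5. The index stood at 6.29, 6.08 and 7.22 among control libraries and 6.25, 6.28 and 6.60 among mutant libraries. It was far higher in control replicate 3 than elsewhere. Pericyte and smooth muscle genes correlated with it as well, at a median r of 0.86 over 10 tested genes, 3 of them at 0.9 or more, and their part in what follows was not tested. A member was said to follow it where Pearson's r over the 6 libraries was at least 0.9 and r was still at least 0.7 after control replicate 3 and mutant replicate 3, the 2 libraries farthest from the median of the index, were left out.

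Of the 20 pan-endothelial markers, the 3 index genes among them, 20 had an r of at least 0.9 but only 10 met the rule. Missing the rule therefore does not set a member apart from endothelial genes. Among members, only Pcdh19 met the rule, 1 of 61 tested, against 1.81% of all genes tested, so the count is near the background. Its r was 0.95 (exact permutation p = 0.00833, 0.226 after Benjamini-Hochberg adjustment over all 13622 genes), its rho 0.77, and its r without the 2 farthest libraries 0.74. The slope was shallow, at 0.36 log2 units of Pcdh19 per unit of index.
Over all 6 libraries, r was at least 0.9 in 4 members, Pcdh12, Pcdh1, Pcdh19 and Pcdhgc3, against 6.66% of all genes tested. Pcdh12 had an r of 0.98 (exact permutation p = 0.00694, adjusted p = 0.226) and a rho of 0.94, and Pcdh1 an r of 0.97 (exact permutation p = 0.0181, adjusted p = 0.23) and a rho of 0.66. Without the 2 farthest libraries, r was 0.60 for Pcdh12, 0.30 for Pcdh1 and -0.94 for Pcdhgc3. These relations therefore rested on control replicate 3 and mutant replicate 3. Without control replicate 3 alone, r was 0.86 for Pcdh12, 0.89 for Pcdh1 and 0.92 for Pcdh19. Of the 13622 genes tested, 0 (0.0%) had an adjusted permutation p under 0.05.

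Pcdh12 and Pcdh1 had the steepest slopes on the index. Pcdh12 moved by 1.06 and Pcdh1 by 0.88 log2 units per unit of index, within the range of 0.68 to 1.44 seen for the 17 pan-endothelial markers outside the index, whose median slope was 0.96. An r of at least 0.9 with a slope of at least 0.8 was found in 2.45% of all genes. Of the 61 tested members, Pcdh12 and Pcdh1 met both, which is near that share. The slope cut was not part of the planned rule. Among members with values in every library given here, the next steepest were Pcdh18 at 0.45, Pcdhga11 at 0.39 and Pcdha12 at 0.38, and Pcdh15 had a slope of -0.06 and an r of -0.19. Without the 2 farthest libraries, r was 0.71 for Pcdh15. Its contrast with Pcdh19 therefore rested on control replicate 3 and mutant replicate 3. The median slope over all genes was -0.02.

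**Figure D2:**
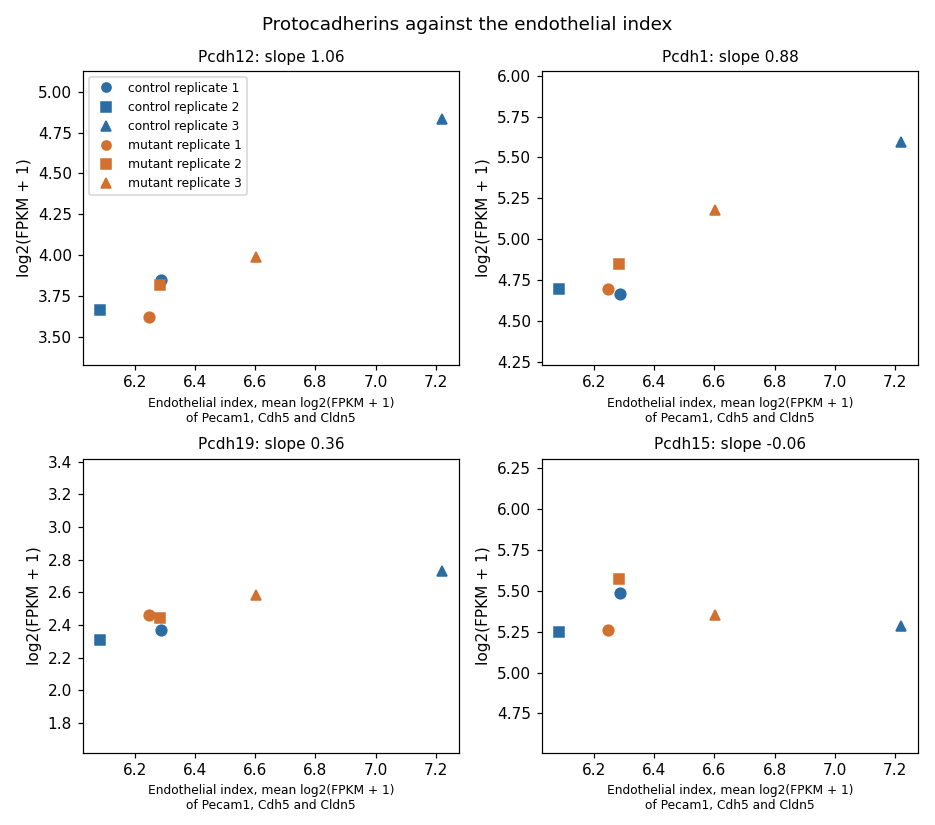
log2(FPKM + 1) of Pcdh12, Pcdh1, Pcdh19 and Pcdh15 against the endothelial index, the mean log2(FPKM + 1) of Pecam1, Cdh5 and Cldn5, 1 point per library, with vertical axes of equal span. Control replicate 3, at an index of 7.22, lies at the far right, where Pcdh12 and Pcdh1 are highest and Pcdh15 is not.

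After the values had been seen, Pcdh12, Pcdh1 and Pcdh19 were also expressed relative to the index, as the difference of the 2 log2 values. Control libraries then had -2.44, -2.42 and -2.39 for Pcdh12, and mutant libraries -2.62, -2.47 and -2.61. Every mutant library was below every control library. The difference was -0.15 (two-sided exact permutation p = 0.1, the smallest that 20 arrangements allow). Among the 61 tested members Pcdh12 was the 1 with this separation, and 1 of the 17 pan-endothelial markers outside the index showed it. The share was 0.139% of all genes. The index was both lowest and highest in control libraries, so genes that do not track it overlap by construction. That share is therefore no background for Pcdh12. Pcdh1 differed by 0.08 (exact permutation p = 0.4) and Pcdh19 by 0.18 (exact permutation p = 0.7). Anxa3 differed by -0.78 on this scale (exact permutation p = 0.1).

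Clustered genes occupy 3 neighbouring blocks of chromosome 18 on GRCm38, the alpha cluster from 36930285 to 37188897, the beta cluster from 37264998 to 37521419 and the gamma cluster from 37661775 to 37841873. The length behind each deposited alpha or gamma value included the shared exons, 2860 bases in the alpha and 2119 bases in the gamma cluster by the annotation. Pcdha1 had only 10 to 17 reads per library over its own and the shared exons, and Pcdhga1 had 222 to 341. Where reads of shared exons were not counted for each member, FPKM understate alpha and gamma genes beside beta genes, which have no shared exons. With reads divided by the length of the member's own exon alone, an added reading that assumes no reads from shared exons, the median level rose from 1.35 to 2.93 in the alpha cluster and from 6.61 to 12.2 in the gamma cluster. In the beta cluster it was 6.32. The alpha cluster was lowest under both lengths.

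In the alpha cluster, 7 of 15 members passed the filter. Pcdha4, Pcdha6 and Pcdha7 were listed at 0 in every library, which can be a failed estimate and would then leave the alpha sum and the count of members that passed too low, and Pcdha1, Pcdha2, Pcdha3, Pcdha5 and Pcdha7-g lay between 0.0310 and 1.27 FPKM. Pcdhac2, a C-type member needed for the even spacing of serotonergic axons, was the highest, with 2.62, 3.12 and 3.10 FPKM in the controls and 2.86, 2.86 and 3.61 FPKM in the mutants. Pcdhac1, the other C-type member of the cluster, was at 0.997, 1.64 and 1.46 FPKM in the controls and at 0.789, 1.61 and 1.61 FPKM in the mutants.
Among the alternate members, which neurons choose stochastically, the highest were Pcdha12, Pcdha10 and Pcdha9. Pcdha12 was at 1.47, 1.69 and 2.40 FPKM in the controls and at 1.38, 2.19 and 2.36 FPKM in the mutants. Pcdha10 was at 1.25, 1.80 and 2.02 FPKM in the controls and at 0.915, 2.04 and 1.95 FPKM in the mutants. Pcdha9 was at 1.30, 1.83 and 2.03 FPKM in the controls and at 1.03, 1.81 and 1.92 FPKM in the mutants. Each of the 3 was lowest in mutant replicate 1 and second lowest in control replicate 1. Between 101 and 358 reads lay behind these values.

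In the beta cluster, 21 of 22 members passed, and Pcdhb1, with 1 to 8 reads per library, did not. Pcdhb17 was the highest, at 16.9, 14.7 and 17.9 FPKM in the controls and 14.9, 16.9 and 16.2 FPKM in the mutants. Pcdhb16 followed at 13.5, 13.5 and 14.5 FPKM in the controls and 12.4, 14.7 and 11.9 FPKM in the mutants. Pcdhb19 was at 10.6, 8.34 and 9.69 FPKM in the controls and at 8.83, 10.1 and 9.79 FPKM in the mutants. Beta proteins act in the same recognition complexes as alpha and gamma proteins, and the tested beta members had means from 1.22 to 16.3 FPKM. No beta member with values printed here separated the groups.
Pcdhb20 was at 10.3, 9.18 and 10.03 FPKM in the controls and at 8.31, 9.74 and 8.61 FPKM in the mutants. Pcdhb6 was at 5.52, 4.54 and 5.30 FPKM in the controls and at 4.996, 6.69 and 6.63 FPKM in the mutants. For Pcdhb20, 2 mutant libraries lay under all controls, and for Pcdhb6, 2 mutant libraries lay above all controls. In each gene the remaining mutant library fell among the controls.

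In the gamma cluster, all 22 members passed. Pcdhgc3, a C-type member that promotes the branching of cortical dendrites, was the highest clustered gene, at 26.5, 28.2 and 35.0 FPKM in the controls and 26.5, 25.7 and 29.1 FPKM in the mutants. Pcdhgc4, the C-type member needed for neuronal survival, was at 7.95, 9.03 and 10.4 FPKM in the controls and at 6.39, 9.18 and 9.43 FPKM in the mutants. Pcdhgc5 was at 2.48, 3.47 and 3.74 FPKM in the controls and at 2.14, 3.37 and 3.83 FPKM in the mutants. Control replicate 3 was highest for Pcdhgc3 and Pcdhgc4 and second highest for Pcdhgc5.
Pcdhgb6 was at 9.24, 9.90 and 12.3 FPKM in the controls and at 8.64, 10.03 and 9.98 FPKM in the mutants. Pcdhga11 was at 8.13, 9.12 and 11.4 FPKM in the controls and at 6.16, 11.1 and 10.1 FPKM in the mutants. Pcdhga10 was at 7.88, 8.39 and 10.98 FPKM in the controls and at 6.85, 10.7 and 9.55 FPKM in the mutants. These 3 were the highest outside the C type, and each was lowest in mutant replicate 1 and highest in control replicate 3. The median level was 6.61 FPKM over the 12 genes of the A type, 5.95 FPKM over the 7 of the B type and 8.72 FPKM over the 3 of the C type.

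Levels were higher towards the downstream end of the alpha and beta clusters. Over members above 0, Spearman's rho between gene order and mean FPKM was 0.87 in the alpha cluster (11 genes) and 0.86 in the beta cluster (22 genes), and 0.50 in the gamma cluster (22 genes). With own-exon lengths the rho of the gamma cluster was 0.46 and that of the alpha cluster 0.87. These are descriptions across genes that share libraries and are not independent.

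**Figure D3:**
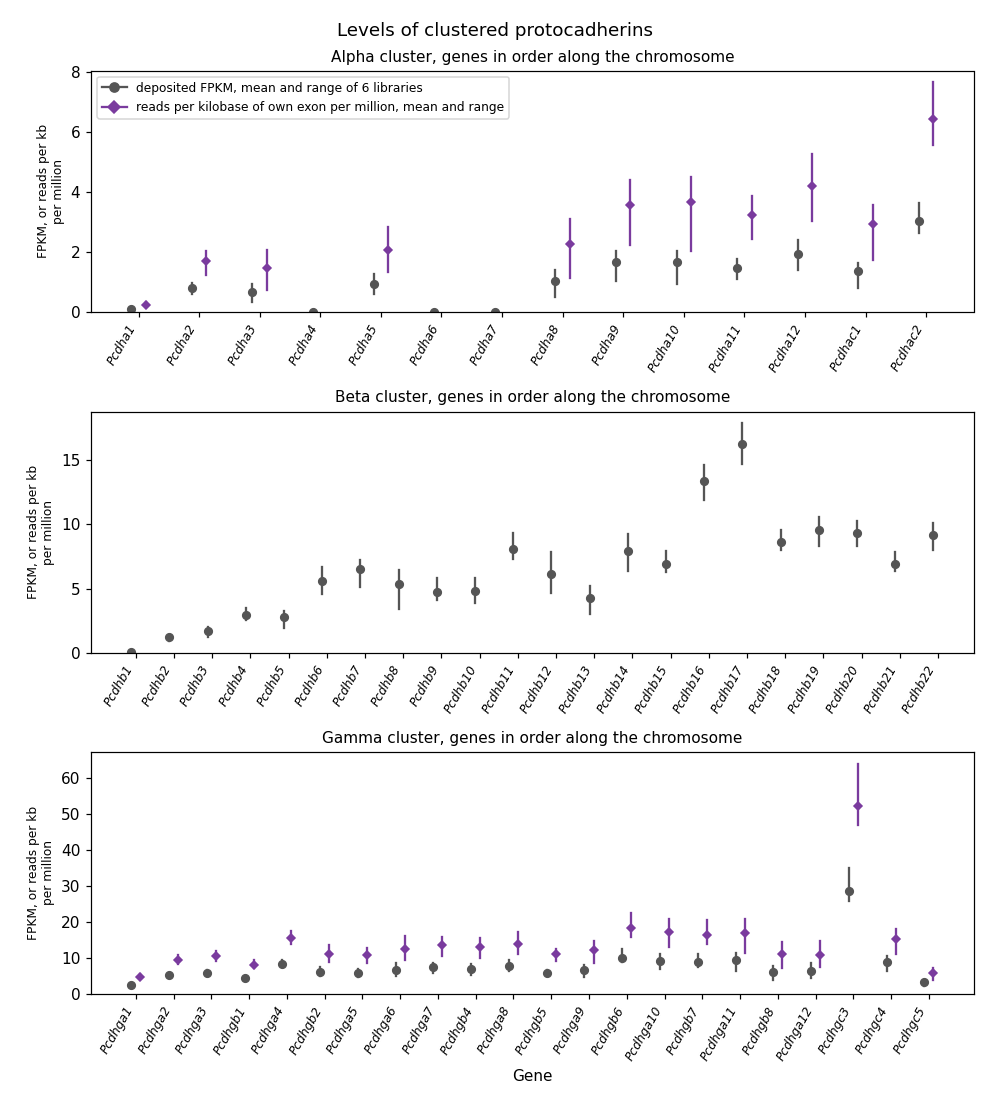
Mean level and range over 6 libraries of each alpha, beta and gamma gene in chromosomal order, as deposited FPKM (grey) and, for alpha and gamma genes, as reads per kilobase of the own exon, scaled by depth (purple). Alpha and beta levels are low at the upstream end, and Pcdhgc3, at a mean of 28.5 FPKM and 52.1 by own exon, stands above the other gamma genes.

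The summed level of each cluster differed between libraries of the same group. The summed alpha level was 11.4, 15.2 and 16.7 FPKM in the controls and 10.4, 16.5 and 17.9 FPKM in the mutants. The summed gamma level was 151, 161 and 203 FPKM in the controls and 138, 178 and 177 FPKM in the mutants. The summed beta level was 144, 133 and 150 FPKM in the controls and 125, 158 and 144 FPKM in the mutants. From the lowest to the highest library the sums spanned 1.72-fold for alpha, 1.47-fold for gamma and 1.26-fold for beta, and each sum was lowest in mutant replicate 1, the library with the fewest reads.
Group means of the sums were 14.5 ± 2.74 and 14.95 ± 3.99 FPKM for alpha, 142 ± 8.51 and 142 ± 16.5 FPKM for beta, and 171 ± 27.5 and 164 ± 22.8 FPKM for gamma, in control and mutant (SD, n = 3 each). Without mutant replicate 1 the mutant means were 17.2, 151 and 178 FPKM. The ratio of mutant to control then went from 1.03 to 1.19 for alpha and from 0.96 to 1.04 for gamma. Without control replicate 3, the highest library for 17 of 22 gamma genes, the gamma ratio was 1.05, so its side of 1 turned on either library.

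Mutant replicate 1 was the lowest library for 5 of 7 tested alpha genes, 12 of 21 beta genes and 17 of 22 gamma genes. Over all 61 tested members the share was 60.7%, against 19.2% of all genes tested. The libraries lettered D to F, control replicate 3 and mutant replicates 2 and 3, were all above those lettered A to C for 17 of 22 gamma genes, 4 of 7 alpha genes and 3 of 21 beta genes. That order held in 42.6% of members against 15.1% of all genes tested.
Markers of neurons that express clustered protocadherins moved in part with the alpha and gamma sums. The beta sum was second lowest in control replicate 2. The mean log2(FPKM + 1) of 11 ganglion cell genes was 1.81, 2.12 and 2.09 in the controls and 1.87, 2.06 and 2.34 in the mutants, lowest in the same 2 libraries as the alpha sum. Over 12 amacrine and horizontal cell genes it was 2.40, 2.49 and 2.47 in the controls and 2.29, 2.51 and 2.53 in the mutants, also lowest in those 2 libraries. The summed ganglion level ran from 38.2 to 50.9 FPKM in the controls and from 40.1 to 62.2 FPKM in the mutants, and that of amacrine and horizontal genes from 94.8 to 102 and from 88.1 to 104 FPKM. Photoreceptor genes summed to 5489, 5172 and 3850 FPKM in the controls and to 6009, 4619 and 4540 FPKM in the mutants. Their sum was highest in mutant replicate 1 and lowest in control replicate 3, the reverse of the gamma sum. The mean log2(FPKM + 1) of bipolar cell genes was 5.39, 5.48 and 5.01 in the controls and 5.41, 5.33 and 5.33 in the mutants. Microglia and macrophage genes summed to 69.4, 70.3 and 56.4 FPKM in the controls and to 38.1, 59.9 and 73.5 FPKM in the mutants. Their sum was also lowest in mutant replicate 1. Muller glia and astrocyte genes were lowest in mutant replicate 2, at a sum of 396 FPKM. In these lists 0 genes were at 0 in every library. The part of these cells, of depth and of the letters in the clustered levels was not tested.

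**Figure D4:**
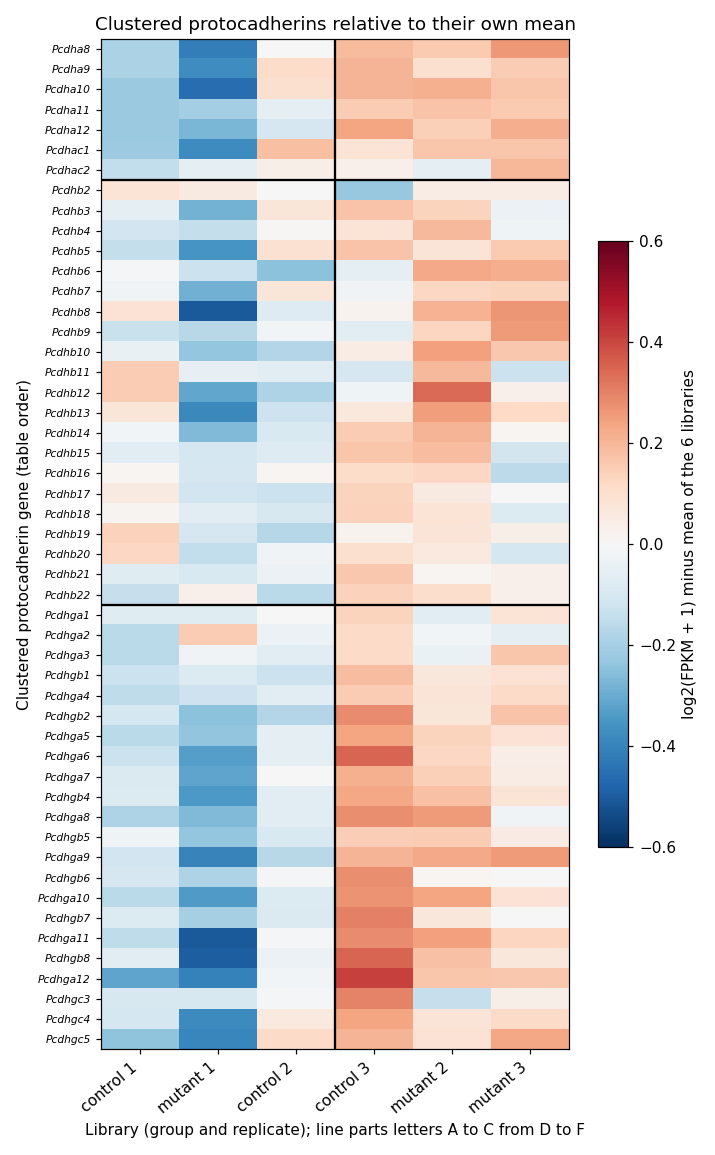
log2(FPKM + 1) of each tested alpha, beta and gamma gene minus its mean over the 6 libraries, with libraries in columns in the order of their letters and genes in rows. The vertical line parts the letters A to C from D to F, and most gamma rows are blue to its left, darkest in mutant replicate 1, and red to its right.

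Over all 6 libraries most members had a positive correlation with the index. Pearson's r was above 0 in 56 of 61 members (91.8%) and in 46.6% of all genes tested, with a median of 0.54 against -0.08. By family the median r was 0.45 for the non-clustered genes, 0.50 for alpha, 0.30 for beta and 0.67 for gamma. Without control replicate 3 and mutant replicate 3, r was above 0 in 33 of 61 members (54.1%) and in 50.3% of all genes, with a median of 0.05 against 0.01. It was then above 0 in 6 of 11 non-clustered, 1 of 7 alpha, 15 of 21 beta and 11 of 22 gamma genes, so the larger share rested on those libraries. Mutant replicate 2, with an index of 6.28 close to the 6.29 of control replicate 1, had a gamma sum of 178 FPKM against 151 FPKM in that control. Over all 6 libraries, Pcdhb2 and Pcdh11x ran the other way, with r of -0.86 and -0.72.

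No protocadherin passed the test between mutant and control libraries. By limma on log2(FPKM + 1) with Benjamini-Hochberg adjustment over 13622 genes, 0 of 61 members had an adjusted p under 0.05, as did 0.0% of all genes. Anxa3, though lower in each mutant library than in any control library, was thus not called either. A member that was not called is therefore not shown to be unchanged. At an unadjusted p under 0.05 there were 0 members, against 165 genes or 1.21% of all tested. In 0 members did the groups not overlap, against 4.35% of all genes, 2.79% with every mutant library above and 1.56% with every mutant library below the controls. There were 26 members higher and 35 lower in the mutants, with a median log2 difference of -0.02 (-0.01 over all genes) and a median absolute difference of 0.05 (0.07 over all genes).
Non-clustered genes were higher in 8 and lower in 3, alpha genes in 4 and 3, beta genes in 9 and 12, and gamma genes in 5 and 17. The median differences of these families were 0.03, 0.00, -0.02 and -0.05.

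Pcdh12 gave the most negative difference, -0.31 ± 0.28 log2 units (SE), and its 95% confidence interval by limma ran from -0.96 to 0.35. Controls averaged 17.5 ± 8.68 FPKM and mutants 13.1 ± 1.77 FPKM (SD, n = 3 each). Leaving out control replicate 3 turned the difference to 0.05, leaving out control replicate 2 made it -0.53, and with the letters as a block it was also -0.53 (limma unadjusted p = 0.0172, adjusted p = 0.718). Pcdh1 measured 32.2 ± 13.1 and 29.3 ± 5.30 FPKM (SD, n = 3 each), a difference of -0.08 with an interval from -0.66 to 0.51, and 0.23 without control replicate 3.
The smallest unadjusted p among members, 0.176 by limma (adjusted p = 1), belonged to Pcdhb6. Controls averaged 5.12 ± 0.512 FPKM and mutants 6.11 ± 0.962 FPKM (SD, n = 3 each). The log2 difference was 0.21 ± 0.14 (SE), within an interval from -0.12 to 0.54. It was 0.33 without mutant replicate 1 (limma unadjusted p = 0.0385, adjusted p = 0.876) and 0.41 with library weights (adjusted p = 0.056). Pcdhb20 and Pcdh11x came next, with log2 differences of -0.13 and 0.15. For Pcdh15 the difference was 0.05 with an interval from -0.21 to 0.32, and 0.24 with library weights (limma adjusted p = 0.0831), and for Pcdh19 0.03 with an interval from -0.31 to 0.36. The median width of the interval over members was 0.67 log2 units.

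**Figure D5:**
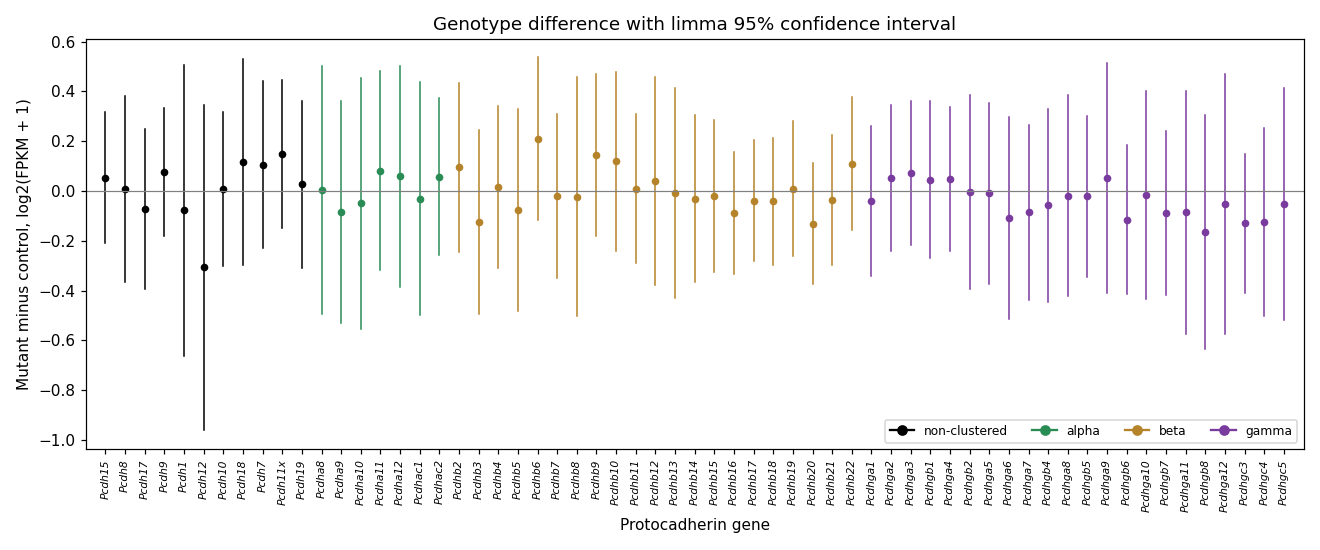
Mutant minus control difference in log2(FPKM + 1) for the 61 tested protocadherins with limma 95% confidence intervals, coloured by family. Every interval crosses 0, and that of Pcdh12, from -0.96 to 0.35, is the widest.

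Genes that work with protocadherins were read from 4 lists, and none had a gene that passed the adjusted threshold. Of 45 relatives in the cadherin superfamily, 27 were tested, with 15 higher and 12 lower in the mutants. Cdh9, a classical-type cadherin of certain bipolar cells, had the smallest p. Controls averaged 1.1997 ± 0.190 FPKM and mutants 2.04 ± 0.288 FPKM (SD, n = 3 each), and the log2 difference was 0.47 ± 0.15 (SE, limma unadjusted p = 0.0138, adjusted p = 1). It was 0.72 with a pseudocount of 0.1 and 0.79 by limma voom on recovered reads. Each mutant library was above each control library for Cdh9, as for 2.79% of all genes. The highest of the list were Cdhr1, a photoreceptor cadherin, at 380 ± 81.3 and 388 ± 94.9 FPKM, and Clstn1, a calsyntenin of synapses, at 328 ± 43.4 and 324 ± 59.9 FPKM in control and mutant (SD, n = 3 each). Fat4, a large planar polarity cadherin, was at 12.5 ± 2.16 and 10.9 ± 0.280 FPKM.

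Of 24 regulators of the clustered promoters, among them cohesin, CTCF and DNA methylation genes, 23 were tested, with 6 higher and 17 lower. Trim28, a co-repressor, was at 109 ± 4.81 and 105 ± 6.33 FPKM and Tet3, a methylcytosine oxidase, at 88.1 ± 7.19 and 83.4 ± 12.5 FPKM in control and mutant (SD, n = 3 each). Wiz, a partner of CTCF and of histone methyltransferases, had a log2 difference of -0.16, and Dnmt1, the maintenance DNA methyltransferase, one of 0.07.
Of 28 cytoplasmic partners and WAVE complex genes, 27 were tested, with 3 higher and 24 lower and a median log2 difference of -0.06, against -0.01 over all genes. Cyfip1, a WAVE complex subunit, averaged 16.1 ± 2.34 FPKM among controls and 13.7 ± 0.315 FPKM among mutants (SD, n = 3 each), and its log2 difference was -0.22 ± 0.12 (SE). Control replicate 1, at 13.7 FPKM, lay among the mutants. The other named genes of the list were Marcks, an actin-binding substrate of protein kinase C, with a log2 difference of -0.20 and Rac1, the GTPase that activates WAVE, with one of -0.15.
Of 14 partners of Pcdh15 in the tip link and related complexes, 6 were tested, with 5 higher and 1 lower. Whrn, a scaffold protein, Adgrv1, a large adhesion receptor, and Myo7a, a motor protein, had log2 differences of 0.02, 0.05 and -0.05.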

How the data were processed

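Per the labels' protocols, a TruSeq v2 kit was used on total RNA. What the authors deposited was FPKM, with a column for each library. The tools in the submitters' processing notes are DESeq2, Cufflinks 2.2.1, STAR 2.5.0b and bedtools 2.17.0, with build mm10 and no roles. Values were whole multiples of 1 read for 16489 of the 16491 rows above 0 in every library (tolerance 0.002 reads), and this gave depth and reads per gene.

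The count tests named as a fallback were not needed. Differences were tested two-sided with limma 3.58.1 (R 4.3.3, trended prior) after log2(FPKM + 1), over the 13622 genes that reached 1 FPKM in 3 or more of 6 libraries, adjusted by Benjamini-Hochberg at 0.05. The scale understates changes of low genes. The fit was tested on simulated data. Correlations used exact permutation over 720 pairings (scipy 1.17.1). Gene positions came from RefSeq on GRCm38.p6, where 70 of 71 members matched, and shared exons from GENCODE. Whether counting used strand is not given in the sources used here, and near-identical beta genes may share reads.

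Members and lists were chosen with earlier results of these data known. Values in every library are given for members averaging at least 1 FPKM, among clustered genes only for the 4 highest per cluster and the C-type genes, and for the 3 smallest p; of each partner list, the 2 highest and the 2 smallest p. A gene named by this rule is not reported here. Alternatives were another pseudocount (0.1), other filters, scaling, blocks, covariate, weights, read-level limma voom and the omission of each library. The main test did not pair libraries by replicate number.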

Additional observations from a re-analysis of the deposited data

How the results depend on the processing

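The count of protocadherins changed was 0 under every alternative run, whose lowest adjusted p over all members was 0.056, for Pcdhb6 with library weights. That setting rested mostly on a pair of libraries. It gave mutant replicate 2 a weight of 7.00 and control replicate 2 one of 3.35, against 0.26 to 0.75 for the others. It put 17 members at an unadjusted p under 0.05 and the letter block 4. The omission of control replicate 3 (Pcdh18, 0.32) or mutant replicate 1 (Pcdhb6, 0.33) put 1 each. The share of all genes at that unadjusted level is not given for these settings, so these counts do not set members apart. The count over the whole table was 0 except with library weights, where limma called 145 genes, 0 of them members. Whether replicate numbers pair the libraries is not given in the labels. Deviations of same-numbered libraries correlated at 0.25, -0.15 and 0.39, and those of control and mutant libraries with unlike numbers at -0.35 to 0.23, which does not settle it. The replicate block called 0 members and 0 genes. The count of members following the endothelial index was 1, beside 1.81% of all genes. It became 2 (Pcdh1 and Pcdh19) with an index of 20 markers, beside 2.68% of all genes. With single libraries left out the count was 0 to 4, while the share of all genes ran from 1.06% to 3.73%. It was 0 without control replicate 3 (1.06% of all genes) or mutant replicate 2 (3.025%). Without control replicate 2 it was 4 (Pcdh17, Pcdhga1, Pcdhgb6 and Pcdh12), beside 2.34% of all genes. With quantile normalization Pcdh12 met the rule and Pcdh19, at an r of 0.88, did not. Log2 differences turned sign for Pcdh8 (-0.0057 with quantile normalization, -0.055 with the letters as a block and -0.11 with library weights), Pcdh19 (-0.048 with the letters as a block), Pcdh1 (0.059 with the index as a covariate and 0.13 with library weights), and, with library weights, Pcdh12 (0.057), Pcdh10 (-0.15) and Pcdhb20 (0.024). With single libraries left out, differences ran from -0.53 to 0.052 for Pcdh12, -0.24 to 0.23 for Pcdh1, -0.054 to 0.16 for Pcdh19, -0.035 to 0.12 for Pcdh15, -0.15 to 0.031 for Pcdh17, -0.14 to 0.11 for Pcdh8, -0.016 to 0.16 for Pcdh9, -0.022 to 0.22 for Pcdh7 and -0.099 to 0.072 for Pcdh10. The cause of these turns was not tested. The own-exon lengths and the sums without mutant replicate 1 or control replicate 3 were chosen after seeing the data. Counting error is small for most tested members and large for Pcdhb1 and the lowest alpha genes, which have few reads.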
